A study of Homo sapiens with 12 samples.

Results

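The silencing of PRC1 in SK-N-MC cells was examined inside each of 2 hairpin lines, as the difference between the array with doxycycline (Dox (+)) and the array without it (Dox (−)). The comparison used the 4 arrays labelled SK-N-MC shPRC1, out of 12 in the series. Of these, 2 came from Dox (+) cells and 2 from Dox (−) cells, with 1 array of each kind per hairpin line. SK-N-MC is an established Ewing sarcoma (EwS) cell line. Its derivatives carried a Dox-inducible short hairpin RNA (shRNA) against the coding sequence of PRC1 (shCDS) or against its untranslated region (shUTR), and Dox (+) cells received 1 µg/ml Dox for 60 h, with fresh Dox at 48 h. The other arrays are an SK-N-MC line with a control hairpin (shCtrl; 1 Dox (+) and 1 Dox (−) array), a pair labelled RDES shCtrl (1 and 1) and the shCDS and shUTR lines of RDES, a second EwS cell line (2 and 2). All of these lines carry an inducible hairpin, and the labels do not say whether a line is a clone or a pool. Both SK-N-MC shPRC1 lines share the parental cells but not the hairpin, and each condition is a single array. The 2 lines therefore served as replicates (n = 2). Each SE and p-value uses the moderated spread of limma, which is drawn mostly from other genes and only partly from these 2 lines. Neither measures variation between cultures of a line. Values are log2 signals of the Clariom D array, so a difference of 1 is a doubling, and a gene was tested when its mean over the 2 Dox (−) shPRC1 arrays was at least 6.5.

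PRC1 cross-links antiparallel microtubules and builds the central spindle, the bundle between the separating chromosomes on which the cleavage furrow of a dividing cell is positioned. It is recruited there by the kinesin KIF4A, is kept off the bundle before anaphase by phosphorylation through CDK1, and docks PLK1 once anaphase begins. EwS cells carry a fusion of EWSR1 with an ETS gene, usually FLI1, whose protein acts as an aberrant transcription factor. An shRNA is processed to a short antisense strand, and bases 2 to 8 of that strand, the seed, can also pair with other transcripts. The shCDS and shUTR hairpins share a target but no seed.

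The sequences below are the antisense strands of the hairpins, read 5′ to 3′ from the oligonucleotides of the study, with the seed in capitals. They are shown because the comparison rests on 2 hairpins with unlike seeds.
shCDS: aAATGCCTttgaatgttcctg
shUTR: tATGTGGTagagaagtcaggc
shCtrl: tTGGTGCTcttcatcttgttg
The sites in PRC1 that the first 2 pair with, with the bases opposite the seed in capitals, are as follows.
shCDS site: caggaacattcaaAGGCATTt
shUTR site: gcctgacttctctACCACATa
Each site is 21 bases long, and PRC1 lies at chr15:90966040-90994535 (GRCh38). Transcript sequences were not used here, so the sites were not placed within exons.

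The labels were checked against marker genes before any comparison. In the 4 SK-N-MC shPRC1 arrays FLI1 lay between 11.90 and 12.07, CD99 between 13.99 and 14.40 and STEAP1 between 15.31 and 16.04, whereas ERG, the other usual fusion partner of EWSR1, lay between 5.98 and 6.55. STAG2, a cohesin subunit, was at 5.84 and 6.02 in the Dox (+) and at 6.06 and 6.04 in the Dox (−) shPRC1 arrays. The SK-N-MC shCtrl arrays had 9.32 and 9.15, and STAG2 was at 13.78 to 14.01 in the RDES shPRC1 arrays. The pair labelled RDES shCtrl had 6.01 and 6.10, so it lay with the SK-N-MC shPRC1 lines and against its label, and the SK-N-MC shCtrl pair stood apart from them. In 1008 genes with a gap of 2 log2 or more between SK-N-MC and RDES shPRC1 lines, the median place on a scale running between the 2 cell lines (0 for SK-N-MC, 1 for RDES) was 0.151 and 0.163 for the SK-N-MC shCtrl pair and 0.00642 and 0.00885 for the pair labelled RDES shCtrl. Both control pairs are therefore given beside the shPRC1 lines, and neither was subtracted. Of markers of other cell types, 3 of 11 epithelial, 3 of 11 haematopoietic and 2 of 11 endothelial genes reached 6.5 in the Dox (−) shPRC1 arrays. The brightest were KRT18 (11.58 to 12.21 in the 4 shPRC1 arrays), EMCN (10.49 to 11.52) and KRT8 (8.83 to 9.62), whereas EPCAM, CDH1, CDH5 and KDR lay at or below 5.04. Of 11 fibroblast genes 10 did. The mean log2 signal of that list was 8.94 and 8.66 in the Dox (+) shCDS and shUTR arrays, against 9.16 and 9.17 in the Dox (−) arrays.

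PRC1 was at 11.55 in the Dox (+) shCDS array and 12.66 in the Dox (+) shUTR array, against 15.56 and 15.59 in the Dox (−) arrays. The groups did not overlap, and the Dox (−) levels lay close to those of the 4 shCtrl arrays (15.59 and 15.67 with Dox, 15.71 and 15.70 without). The difference was −4.02 in the shCDS and −2.93 in the shUTR line, beside −0.11 and −0.03 for shCtrl (the SK-N-MC pair first, then that labelled RDES). The mean, −3.47 ± 0.28 (moderated SE, n = 2 lines), is an 11.1-fold lower signal, and PRC1 had the smallest p of all genes tested (limma adjusted p = 5.42e-11). In RDES the same hairpins gave −3.96 and −1.47, so in both cell lines the shCDS hairpin gave the larger difference.

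Across all 15227 genes tested, 117 (0.768%) were lower and 19 (0.125%) were higher with Dox at a limma adjusted p below 0.05. Every one of these had the same sign in both lines, which the call by the mean of both lines favours. For 6 of the lower genes 1 line fell by at least 1 log2 and the other by less than 0.5. A fall of at least 1 log2 in each hairpin line was seen for 51 genes (0.335%), and a rise of at least 1 in each for 3 (0.0197%). The count of calls depends on how the spread is estimated. With 1 residual degree of freedom limma borrowed most of it from other genes (prior degrees of freedom 37.9), and when each array was centred on its own median over the genes tested this fell to 7.82 and 3 genes were called, PRC1, ALDOC and STC1. Centring took away a difference between array medians of 0.01 in the shCDS and −0.26 in the shUTR line, and it left 21 genes lower and 9 higher by at least 1 log2 in each line. On simulated data the false share among calls was above the nominal level, so the count of calls is a loose one. With the spread of all 6 lines 6 genes were called (the same 3 with BHLHE40, CD9 and HLA-C), and with the arrays unpaired none was, PRC1 included (limma adjusted p = 0.0709; 1266 genes had an unadjusted p below 0.05). The 2 lines went the same way for 53.3% of all genes, and across genes their differences had a Pearson correlation of 0.24, given as a description of genes that share arrays and normalization.

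**Figure D1:**
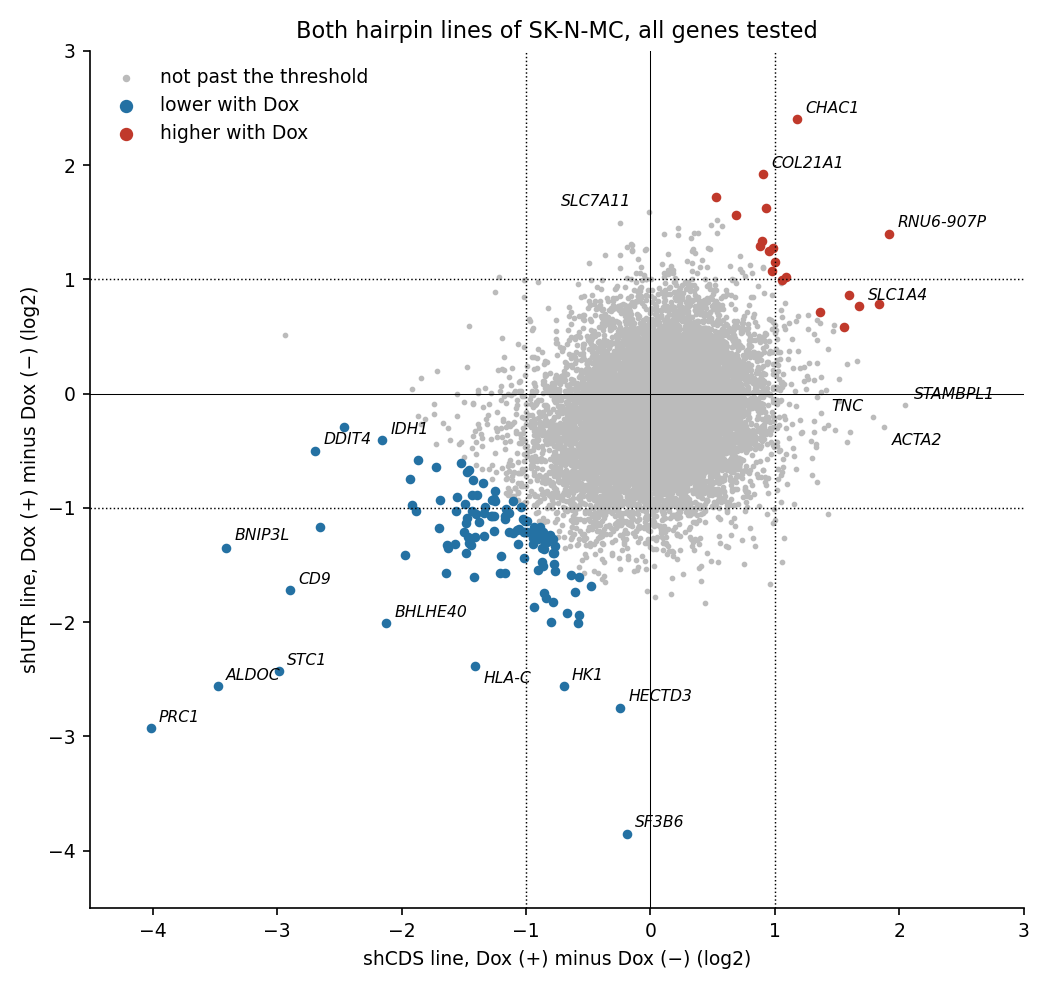
Difference between Dox (+) and Dox (−) arrays (log2) in the shCDS line (x axis) and the shUTR line (y axis) of SK-N-MC for each gene tested; blue points are the 117 genes lower and red points the 19 genes higher with Dox, and dotted lines mark 1 log2. PRC1, ALDOC, STC1 and CD9 lie far down both axes, SF3B6 and HECTD3 far down the shUTR axis only, and STAMBPL1 and ACTA2 to the right on the shCDS axis only.

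Next to PRC1, the largest falls shared by both lines were those of ALDOC, STC1, BHLHE40 and CD9. ALDOC, which encodes the brain-type aldolase of glycolysis, was at 7.94 and 8.81 in the Dox (+) shCDS and shUTR arrays, against 11.42 and 11.37 in the Dox (−) arrays. It was 8.11-fold lower on average (−3.02 ± 0.27 log2, SE; limma adjusted p = 1.25e-09). STC1, which encodes the secreted glycoprotein stanniocalcin 1, was at 8.62 and 9.13 with Dox, against 11.61 and 11.56 without (−2.71 ± 0.27; adjusted p = 1.03e-08 by limma). In both genes the Dox (+) and Dox (−) arrays were separated by more than the 2 lines differed from each other.

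CD9, a tetraspanin of the plasma membrane and of exosomes, was at 6.37 and 6.82 in the Dox (+) arrays and 9.26 and 8.54 in the Dox (−) arrays (−2.31 ± 0.28; adjusted p = 1.90e-06). BHLHE40, a transcriptional repressor induced by low oxygen and by differentiation signals, was at 6.16 and 5.84 with Dox, so below the level used as filter, and at 8.28 and 7.85 without. HLA-C, the heavy chain of a classical class I HLA molecule, was at 8.76 and 7.54 with Dox, against 10.17 and 9.93 without (−1.90 ± 0.28; adjusted p = 6.94e-05). HLA class I genes are near-identical over long stretches, so part of a probe set's signal can come from a related gene.

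The place of these levels beside the control hairpin differed between genes. For PRC1 the Dox (−) arrays lay at the shCtrl level and the Dox (+) arrays below it. For ALDOC, STC1 and HLA-C it was the Dox (−) arrays that lay above all 4 shCtrl arrays, whose ranges were 7.64 to 8.81, 8.22 to 9.10 and 7.66 to 8.65, and the Dox (+) arrays lay inside or within 0.2 log2 of those ranges. CD9 was above the shCtrl range of 7.11 to 7.43 without Dox and below it with Dox. BHLHE40 was above the shCtrl range of 4.48 to 5.22 in all 4 shPRC1 arrays. Among all genes tested, both Dox (−) arrays lay above all shCtrl arrays for 24.1% and both Dox (+) arrays lay below them for 14.5%. Among the 117 genes lower with Dox the counts were 61 and 66, with 14 genes in both and 4 in neither. Because a gene entered this list through high Dox (−) or low Dox (+) arrays, the counts describe the list and test nothing. Against the pair labelled RDES shCtrl alone they were 67 and 80, and against the SK-N-MC shCtrl pair alone 71 and 68. With 1 control array per condition, the difference between lines without Dox was not tested.

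**Figure D2:**
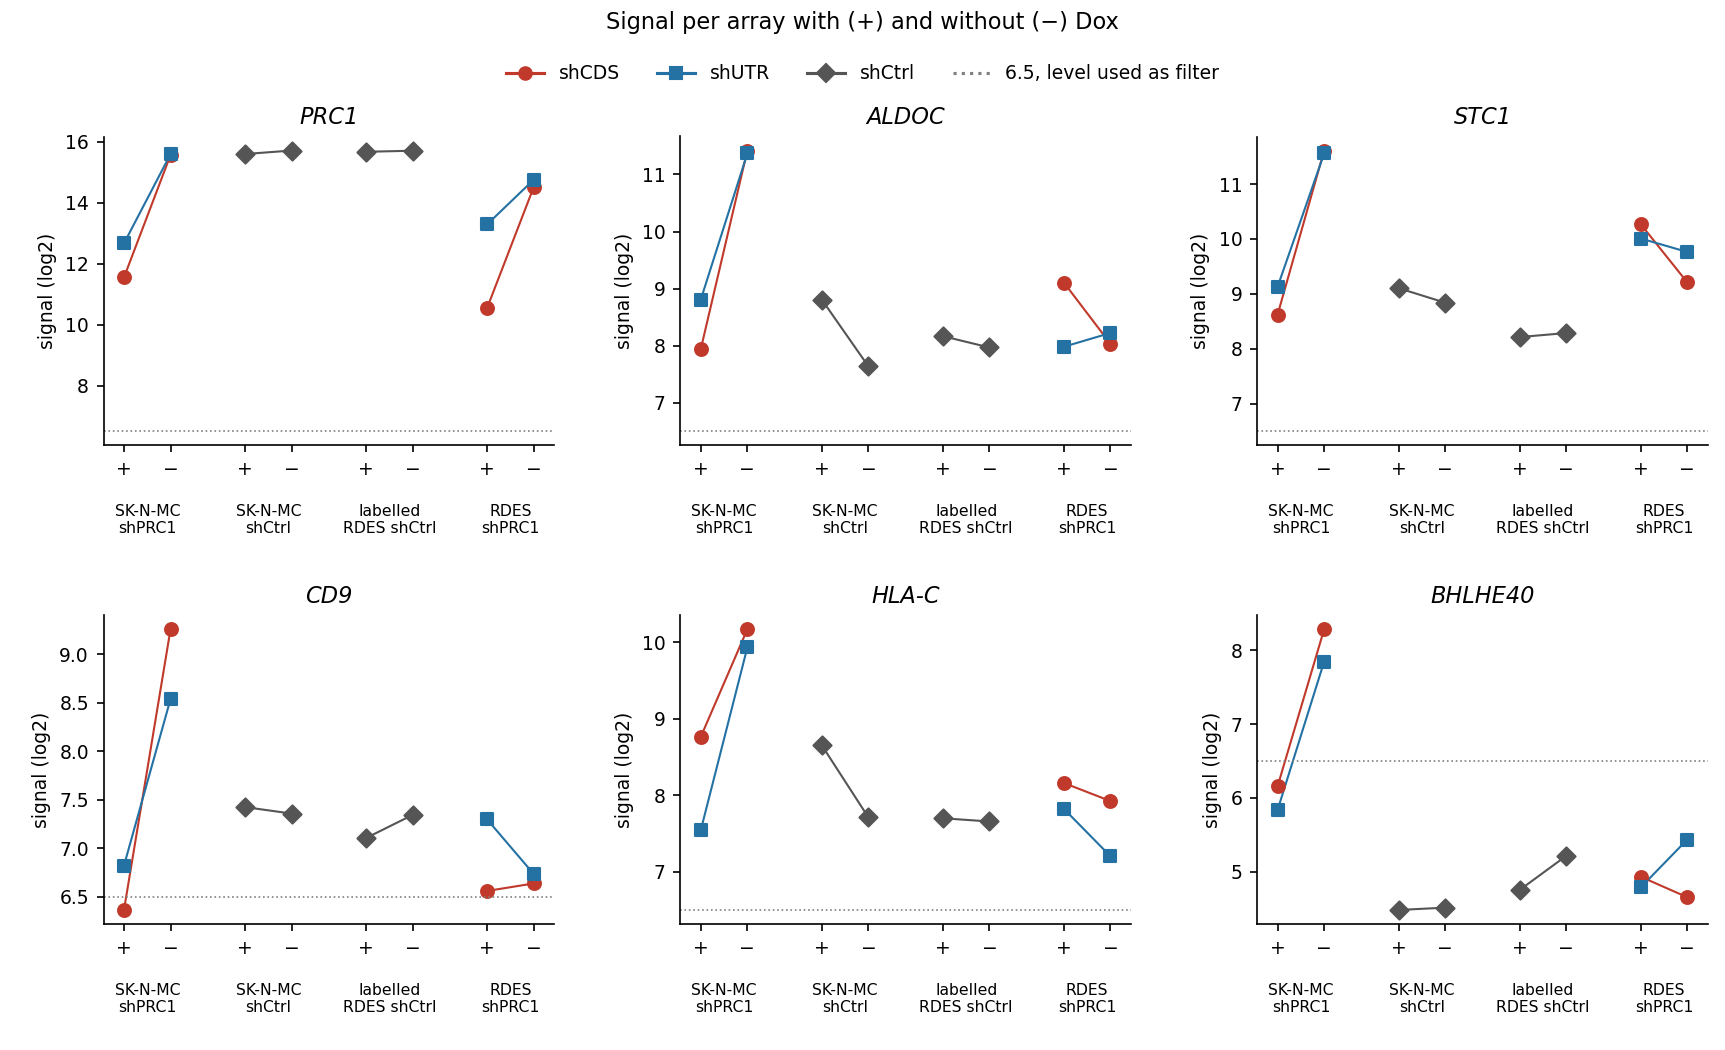
Log2 signal of 6 genes in every array, with Dox (+) left of Dox (−) in each group: SK-N-MC shPRC1, SK-N-MC shCtrl, the pair labelled RDES shCtrl and RDES shPRC1. Points are single arrays, lines join the arrays of a derivative line, and the dotted line is the level of 6.5 used as filter; PRC1 is lower with Dox in all 4 shPRC1 lines, while ALDOC, STC1, CD9, HLA-C and BHLHE40 are highest in the 2 Dox (−) SK-N-MC shPRC1 arrays.

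Among the other genes with the largest falls shared by both lines, BNIP3L, which encodes a mitophagy receptor of the outer mitochondrial membrane, was at 11.53 and 13.60 with Dox, against 14.93 and 14.96 without. The fall was −3.41 in the shCDS and −1.35 in the shUTR line, and it was −2.33 and −0.21 in RDES with the same hairpins. SEMA3A, a secreted axon guidance cue, was at 6.85 and 7.54 with Dox and 8.83 and 8.96 without (−1.70 ± 0.27; limma adjusted p = 0.000284), and here the Dox (−) arrays too lay below the shCtrl range of 9.13 to 9.72. RASSF2, a RAS-association domain protein, TMEM45A, a transmembrane protein, PCYT1B, an enzyme of phosphatidylcholine synthesis, and GLT8D2, a glycosyltransferase, fell by 1.44 to 1.61 on average. In these 4 genes the single-line differences all lay between −1.64 and −1.35, so the lines lay close together.

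**Figure D3:**
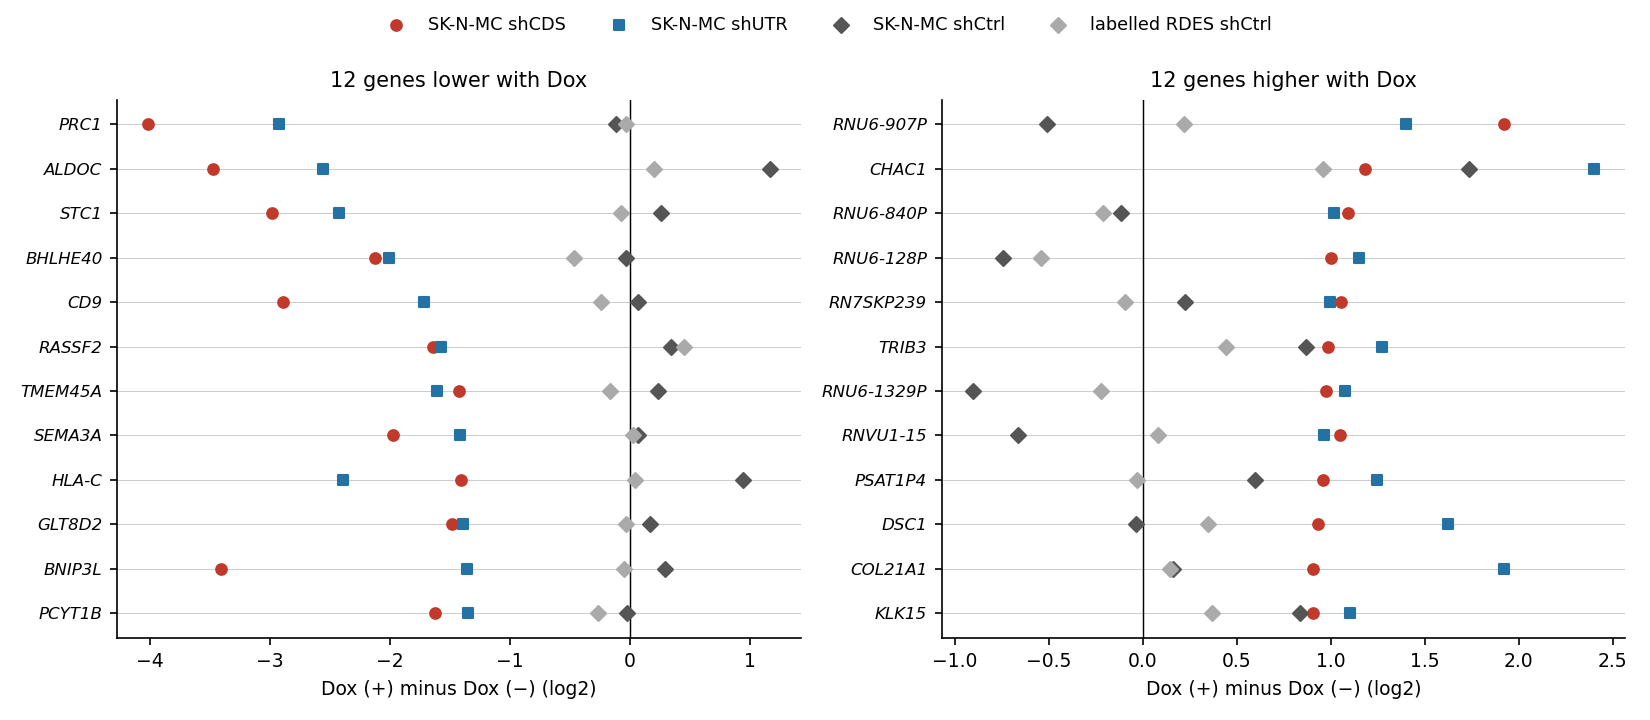
Dox (+) minus Dox (−) difference (log2) of the 12 genes with the largest fall shared by both lines (left) and the 12 with the largest shared rise (right), with red circles for shCDS, blue squares for shUTR and grey diamonds for the 2 shCtrl pairs. All 12 genes on the left have both shPRC1 points left of both shCtrl points, whereas CHAC1 on the right has a shCtrl point between its shPRC1 points.

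Genes of the hypoxia response and glycolysis held more of the falls than any other list. The hypoxia-inducible factors HIF1A and EPAS1 pair with ARNT and, when oxygen is low, raise glucose transporters, glycolytic enzymes, mitophagy receptors and collagen-modifying enzymes, while the prolyl hydroxylases (EGLN genes) and VHL mark HIF for destruction when oxygen is present. Of 52 list genes measured 43 passed the filter, and of these 11 were lower (25.6%, against 0.768% of all genes) and 0 higher with Dox. After centring each array on its median, only ALDOC and STC1 of the list were called. With the spread of all 6 lines, only ALDOC, STC1 and BHLHE40 were. The list median was −0.20 in the shCDS and −0.50 in the shUTR line, beside 0.07 and −0.16 for all genes, and it was 0.18 and −0.05 in the 2 shCtrl pairs. The list was drawn up with earlier results of these arrays known, so its counts are no independent evidence.

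By role, the sensors and factors themselves showed no called change. HIF1A differed by 0.10 and −0.20, ARNT by −0.12 and −0.01, VHL by −0.15 and −0.40, and EGLN1 by −0.74 and −0.74 in the shCDS and shUTR lines. Of 17 glycolytic enzymes and their regulators 3 were lower, ALDOC, HK1 (hexokinase 1) and PDK1, the kinase that inhibits pyruvate dehydrogenase. PDK1 was at 10.53 and 11.06 with Dox, against 12.42 and 12.09 without, and lay between 10.07 and 11.15 in the shCtrl arrays. HK1 fell by 2.56 in the shUTR line but by 0.70 in the shCDS line. The abundant enzymes were nearly level: GAPDH differed by 0.07 and −0.13, ENO1 by 0.03 and −0.08 and LDHA by −0.20 and −0.30. Of 10 mitophagy and stress genes 4 were lower, BNIP3L, BHLHE40, BNIP3 and DDIT4, an inhibitor of mTORC1 signalling. BNIP3 was at 12.93 and 12.73 with Dox, against 13.98 and 13.91 without. DDIT4 rested mostly on the shCDS line (−2.69, against −0.50 in the shUTR line).

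Of the 8 secreted and matrix-modifying genes 3 were lower, STC1, LOX and P4HA1, which encode stanniocalcin 1, lysyl oxidase and a collagen prolyl hydroxylase. VEGFA, the endothelial growth factor, differed by 0.46 and 0.14 and was not called. SLC2A1, the glucose transporter GLUT1, was at 10.38 and 10.57 with Dox and 11.65 and 11.65 without, which is outside the spread of the 2 lines (−1.17 ± 0.26; limma adjusted p = 0.0185). HK1, DDIT4, PDK1, SLC2A1, BNIP3 and P4HA1, and the list members given above as not called, were named after their values were seen. Both Dox (−) shPRC1 arrays lay above all shCtrl arrays for 28 of the 43 genes (24.1% of all genes), and both Dox (+) arrays lay below them for 5 (14.5% of all genes). In the mean, the list's Dox (−) arrays were 0.55 log2 above the Dox (−) shCtrl arrays (median over genes) and its Dox (+) arrays 0.03 above the Dox (+) shCtrl arrays. Over all genes tested these medians were 0.10 and 0.04.

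HIF binds sites that often hold the core ACGTG, and no other form of the core was searched. That word, on either strand, was present around the start (250 bases before to 50 after, RefSeq, GRCh38.p14) of 6 of 9 called hypoxia genes with an entry, 19 of 38 list genes, 30 of 90 genes lower with Dox, 26.7% of the genes tested and 21.6% of all promoters. It is also part of the E-box CACGTG, which BHLHE40 and other factors bind, so a match is a description of the sequence and not a binding site. Windows from 4 of these 6 called genes are shown as examples, with the word or its complement in capitals. BHLHE40 and LOX, which also hold the word, are not shown.
ALDOC, chr17:28577120-28577144, minus strand: agtgcccggcACGTGgtaaagggat
ALDOC, chr17:28576909-28576933, minus strand: ccggaggagtCACGTagctctgcga
BNIP3, chr10:131982042-131982066, minus strand: cacgcgccgcACGTGccacacgcac
DDIT4, chr10:72273789-72273813, plus strand: aacgttgcttACGTGcgcccggagt
P4HA1, chr10:73096938-73096962, minus strand: tgatcgagctCACGTagcgagggct
A second word, the classical sterol regulatory element of 10 bases that SREBP binds, was searched in the same way on both strands. It was in 0 of 4 called cholesterol genes, 1 of 20 genes of that list (SREBF2) and 0.0476% of all promoters, and ACGTG was in 5 of the 20. The first ALDOC window and the BNIP3 window hold the whole E-box, whereas the second ALDOC window and the DDIT4 and P4HA1 windows hold the core without it.

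Most genes of cholesterol synthesis had a difference below 0 in both lines, and few of them passed the test. Sterols are made from acetyl-CoA through mevalonate, and the SREBP factors (SREBF1, SREBF2), escorted by SCAP and held back by INSIG1, raise the enzymes when sterols are short. All 22 measured genes of the list passed the filter, 4 were lower (18.2%, against 0.768% of all genes) and 0 higher. The difference was below 0 in both lines for 20 of 22 (90.9%), beside 31.3% of all genes. The list median was −0.81 in the shCDS and −0.46 in the shUTR line, with 0.12 and −0.02 in the shCtrl pairs. After centring each array on its median, none of the 22 genes was called.

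The called genes were INSIG1, IDI1, MVD and SREBF1. INSIG1 was at 10.54 and 10.64 with Dox, against 11.91 and 11.76 without (−1.25 ± 0.27, limma adjusted p = 0.0102). MVD, which decarboxylates mevalonate diphosphate to isopentenyl diphosphate, was at 8.42 and 8.17 with Dox and 9.68 and 9.37 without, and all 4 shCtrl arrays lay between 9.34 and 9.72. IDI1, the isomerase that follows it, was at 13.74 and 14.02 with Dox, against 15.23 and 14.99 without. SREBF2 had −0.57 and −1.52, HMGCS1 −1.42 and −0.37, LSS −1.02 and −0.97, and SQLE −0.30 and −0.22, and none of these 4 passed the threshold. The last 3, SREBF1, SCAP, NSDHL and, among the matrix genes, COL1A1 were likewise named after their values were seen. Only SCAP (0.73) and NSDHL (0.14) were above 0 in the shCDS line, and no member was above 0 in the shUTR line.

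Beside the control hairpin, the cholesterol genes lay the other way from the hypoxia genes. Both Dox (+) arrays lay below all shCtrl arrays for 16 of 22 genes (14.5% of all genes), and both Dox (−) arrays lay above them for 5 (24.1% of all genes). The Dox (+) arrays were 0.75 log2 below the Dox (+) shCtrl arrays and the Dox (−) arrays 0.02 above the Dox (−) shCtrl arrays (medians over the list). Over all genes tested the Dox (+) arrays were 0.04 and the Dox (−) arrays 0.10 above. With the pair labelled RDES shCtrl alone, 17 of 22 were below and 6 above, and for the hypoxia list 11 of 43 and 29 of 43. Of 10 fatty acid synthesis genes 1 was lower, ACSS2, which makes acetyl-CoA from acetate. FASN had −0.41 and −1.21 and SCD −0.68 and −0.81, and neither was called.

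**Figure D4:**
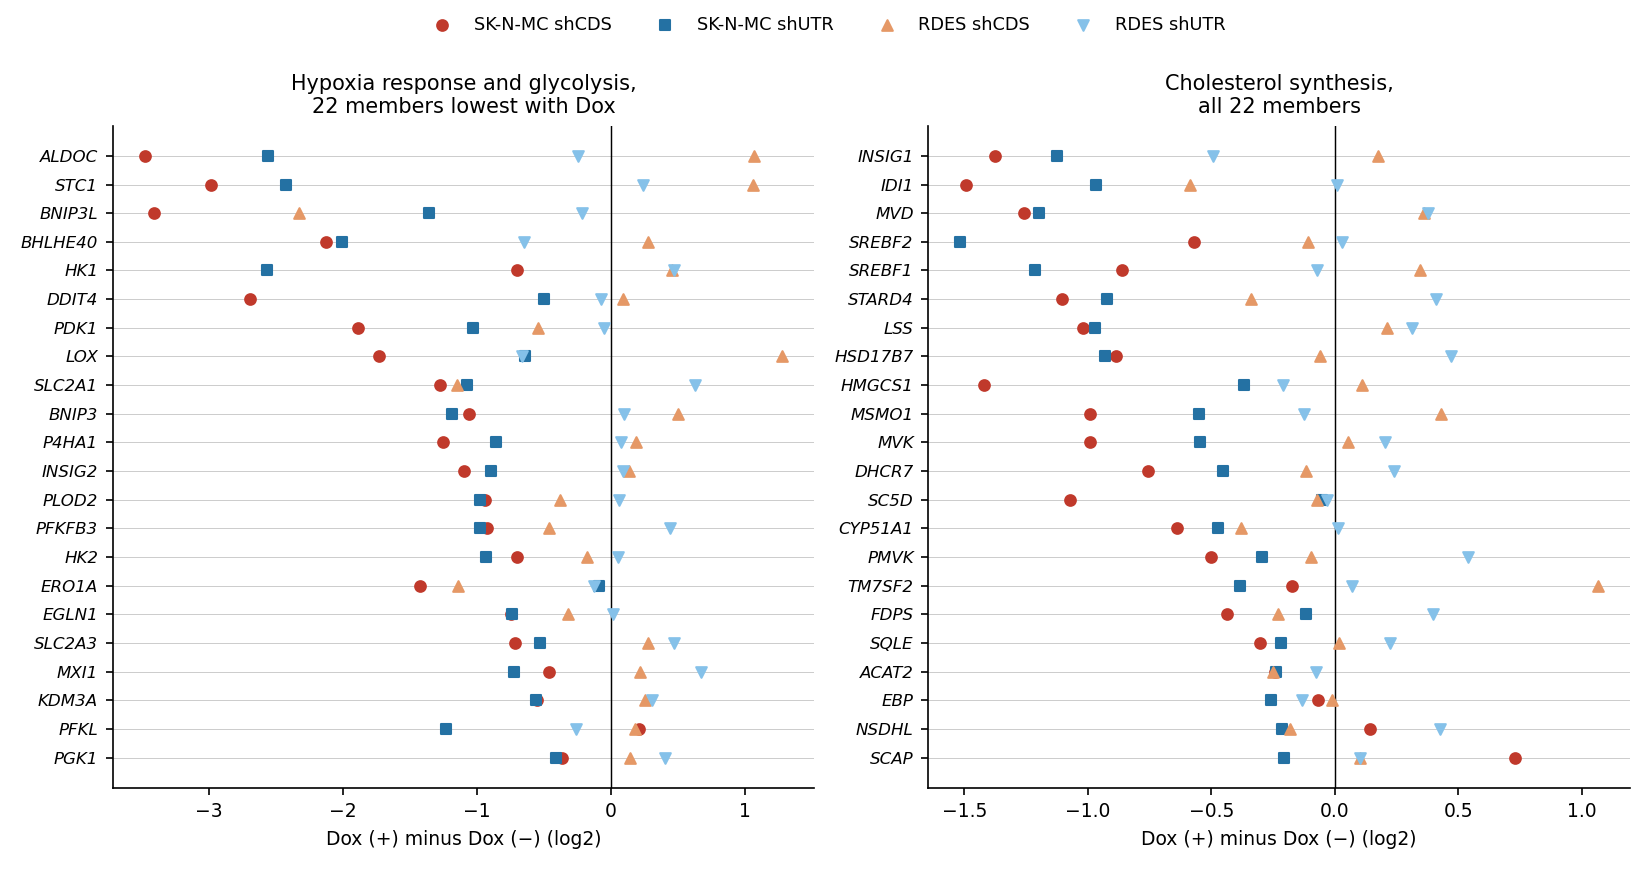
Dox (+) minus Dox (−) difference (log2) of the 22 hypoxia and glycolysis genes with the lowest mean (left) and of all 22 cholesterol synthesis genes (right) in the shCDS and shUTR lines of SK-N-MC and of RDES. In SK-N-MC most points lie left of 0 with both hairpins, while the RDES points lie on both sides of 0.

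Of the genes of mitosis listed, PRC1 was the only one that passed the test. Of 22 genes of the spindle midzone, the list around PRC1, only PRC1 itself was called (4.55%, against 0.768% of all genes). KIF4A, the kinesin that carries PRC1, differed by 0.02 and −0.23, KIF23 and RACGAP1, the pair that forms centralspindlin, by 0.15 and −0.13 and by 0.02 and −0.36, and PLK1 by 0.19 and 0.04. The passenger complex kinase AURKB had −0.96 and −0.58 (limma adjusted p = 0.202), its partner INCENP 0.03 and −0.55, and ECT2, which activates RHOA at the furrow, −0.95 and −0.19. The remaining midzone genes had mean differences between −0.39 and 0.06. Of 48 G2/M genes, 43 replication genes and 40 replication-dependent histone genes none was called, which in lists of this length is near the share of all genes. Below 0 in both lines were 27 of the 48 G2/M genes (56.2%), 18 of the 43 and 15 of the 40, beside 31.3% of all genes. The list medians were −0.04 and −0.37, 0.02 and −0.23, and 0.06 and −0.21 in the shCDS and shUTR lines. FOXM1, which drives G2/M transcription, was at 13.10 and 13.21 with Dox, against 13.72 and 13.79 without (−0.60 ± 0.26, limma adjusted p = 0.403). In the RDES shCDS line the G2/M median was −1.45 and the histone median −1.46, and in the RDES shUTR line 0.11 and 0.12.

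Falls of single genes were also called among cell surface, matrix and AP-1 genes. Beside 0.768% of all genes, 1 call or none in a list of this length does not set the list apart, and the genes are given for themselves. HLA-C was the only called gene of 19 in HLA class I and antigen processing. HLA-B was at 8.46 and 7.88 with Dox, against 9.20 and 8.84 without, and TAPBP, the peptide-loading chaperone tapasin, at 9.89 and 9.79, against 10.71 and 10.77. Neither passed the threshold (limma adjusted p = 0.128 and 0.0969). No gene of 22 in the interferon response was called, with medians of −0.14 and −0.34. CD9 was the only one of 22 tetraspanins called. Of 33 matrix genes 4 were lower (12.1%), LUM (lumican), LTBP1, which holds latent TGF-beta in the matrix, LOX and NID2, a basement membrane protein. LUM was at 8.37 and 8.39 with Dox and 10.06 and 9.57 without, and at 11.15 to 11.93 in the shCtrl arrays. LUM is also 1 of the 2 called genes of the fibroblast marker list, whose mean level moved with Dox as given above. The part of that shift in the matrix result was not tested. COL1A1, a fibrillar collagen, had 0.56 and 0.62 and was not called. JUN, the AP-1 subunit, was at 10.64 and 10.28 with Dox, against 12.10 and 11.59 without, while FOS (−0.63 and −0.32) and ATF3 (0.53 and 0.71) were not called. Of 27 genes activated by EWSR1-FLI1 none was called, with medians of 0.21 and −0.35, and of 13 repressed by it only LOX was lower. None of 15 YAP/TAZ targets, 19 genes of the unfolded protein response, 19 p53 targets, 26 apoptosis regulators, 20 neural lineage factors and 40 ribosome biogenesis genes was called. SEMA3A was the only called gene of 34 in axon guidance.

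**Figure D5:**
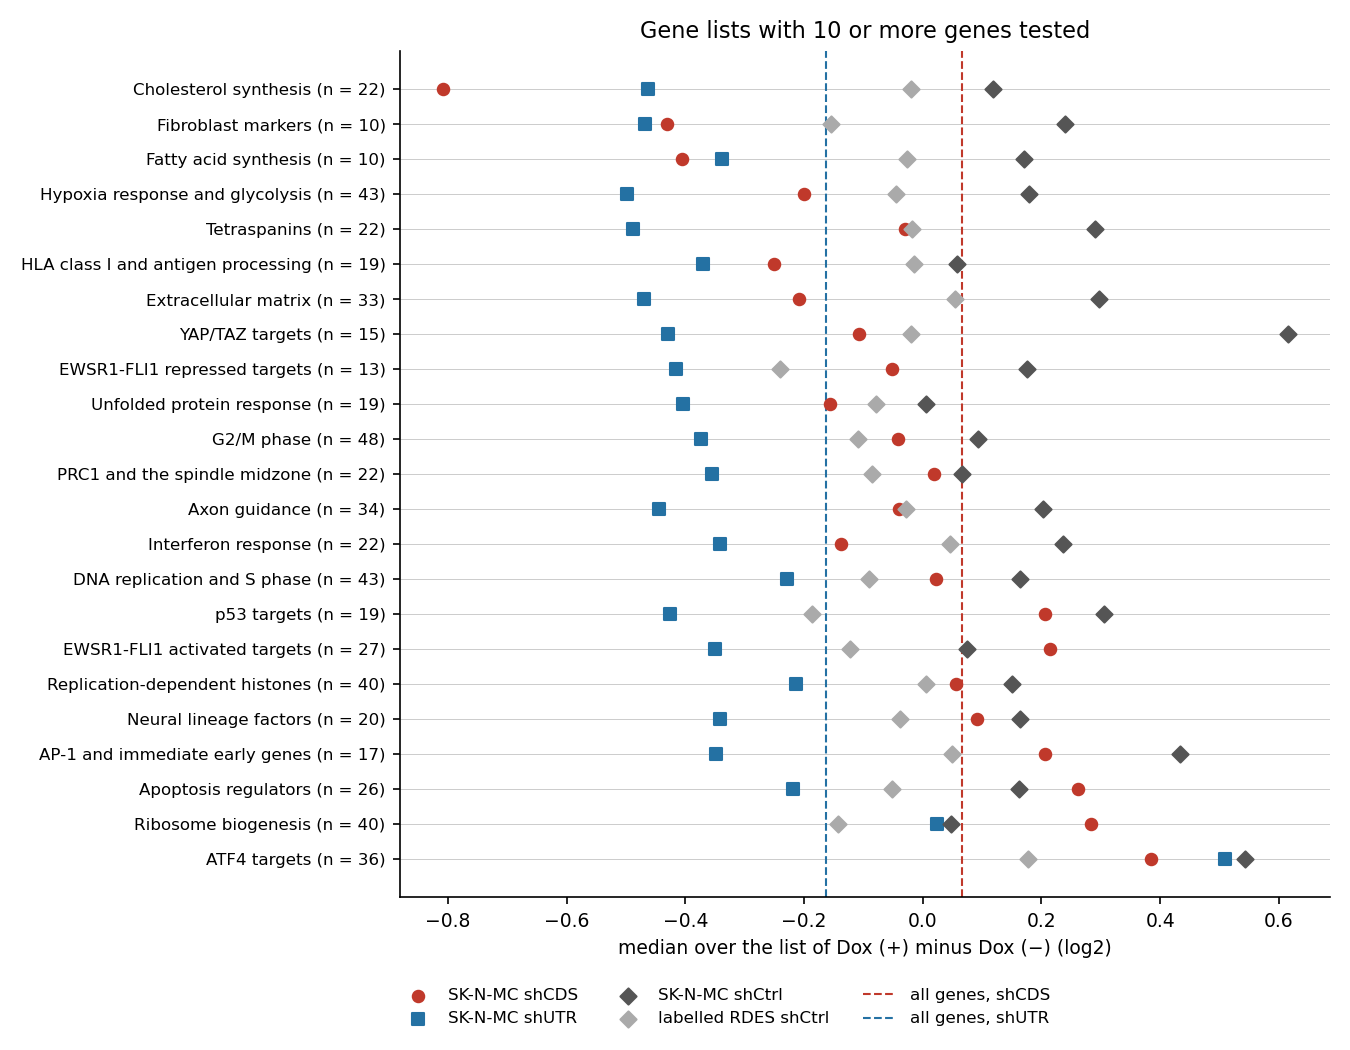
Median Dox (+) minus Dox (−) difference (log2) over each gene list with 10 or more genes tested, for the shCDS (red circles) and shUTR (blue squares) lines of SK-N-MC and both shCtrl pairs (diamonds), ordered by the mean of the hairpin lines. Dashed lines are the medians over all genes tested; the cholesterol list lies lowest in the shCDS line, and the ATF4 list lies above 0 in all 4 pairs.

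The genes higher with Dox were led by U6 pseudogenes and ATF4 targets. A gene entered the test by its Dox (−) level, so one that rose above 6.5 only with Dox was left out, and without the filter 59 genes were lower and 11 higher by at least 1 log2 in each line. ATF4 is the factor through which amino acid shortage and other stress raise amino acid transporters, synthetases and tRNA ligases. Of 36 list genes tested 4 were higher (11.1%, against 0.125% of all genes) and 30 had a difference above 0 in both lines (83.3%, beside 22.0% of all genes). CHAC1, a glutathione-degrading enzyme, was at 9.62 and 10.94 with Dox, against 8.44 and 8.54 without (1.79 ± 0.28; limma adjusted p = 0.000283). In the shCtrl pairs it differed by 1.74 and 0.96. TRIB3, a pseudokinase, rose by 0.98 and 1.27, with 0.87 and 0.44 in the shCtrl pairs, and the transporter genes SLC7A5 and SLC1A4 rose by 1.37 and 0.71 and by 1.68 and 0.77, with 1.32 and 0.21 and 0.33 and 0.26. The list median was 0.38 and 0.51 in the shPRC1 lines and 0.54 and 0.18 in the shCtrl pairs. The medians of all genes were 0.07 and −0.16, and 0.11 and −0.07. Both shPRC1 medians thus lay below that of the SK-N-MC shCtrl pair and above that of the pair labelled RDES shCtrl. Whether the list rose more than with a control hairpin was not tested.

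Of the 19 genes higher with Dox, 6 were protein-coding. DSC1, a desmosomal cadherin, was at 7.98 and 8.76 with Dox, against 7.05 and 7.14 without, and COL21A1, a fibril-associated collagen, at 8.23 and 9.15, against 7.32 and 7.23. Neither moved by more than 0.35 in a shCtrl pair. A further 12 were pseudogenes, among them 8 copies of the U6 small nuclear RNA, led by RNU6-907P (9.14 and 8.37 with Dox, against 7.22 and 6.97 without). Copies of U6 are near-identical, and probes can take signal from several, so these are 1 uncertain family rather than 8 findings. Of the 444 U6 genes and pseudogenes tested, 8 were higher and 1 was lower (0.125% and 0.768% of all genes). Above 0 in both lines were 218 of the 444, beside 22.0% of all genes. Their medians were 0.27 and 0.11 in the shPRC1 lines and −0.21 and −0.04 in the shCtrl pairs. Both Dox (+) arrays lay above all shCtrl arrays for 14 of the 19 higher genes (17.3% of all genes) and both Dox (−) arrays below them for 2 (11.9% of all genes).

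Each hairpin line also had falls that the other did not share. By size alone, 237 genes were lower by at least 1 log2 in the shCDS line and 484 in the shUTR line. Higher by that size were 128 and 83. In the shCtrl pairs 62 and 11 genes were lower and 105 and 5 higher by that size (the SK-N-MC pair first). Each count rests on 1 pair of arrays. The array medians differed by −0.26 in the shUTR and 0.01 in the shCDS line, and these counts were not corrected for that. Of the genes lower with shUTR, 306 stayed within 0.5 log2 with shCDS, and of those lower with shCDS, 104 stayed within 0.5 with shUTR. The same hairpin in RDES gave a fall of at least 1, with the other hairpin within 0.5 in both cell lines, for 3 of the shUTR genes and 24 of the shCDS genes. Among all 15227 genes tested, 33 fell by at least 1 log2 in the RDES shUTR line and 574 in the RDES shCDS line. The 2 counts can therefore not be compared between hairpins. SF3B6, a subunit of the U2 snRNP of the spliceosome, was at 10.47 in the Dox (+) shUTR array and 14.08 in the Dox (+) shCDS array, against 14.32 and 14.26 without Dox. The SK-N-MC difference was −3.85 with shUTR and −0.19 with shCDS, and the RDES difference −1.82 with shUTR and −0.05 with shCDS. For HECTD3, a ubiquitin ligase, SK-N-MC gave −2.75 with shUTR and −0.24 with shCDS, and RDES −1.07 with shUTR and 0.45 with shCDS. Both are among the 117 genes called, so a call does not show that both hairpins acted. The shCDS genes include KTN1 (−1.72 with shCDS and 0.20 with shUTR), PANX1 (−1.85 and −0.26), NFIB (−1.74 and −0.09), RPA1 (−1.39 and −0.27) and YAP1 (−1.53 and −0.44). These names were chosen after their values were seen, and whether seed pairing is involved was not tested.

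The shPRC1 difference was then set against that of shCtrl in SK-N-MC in a fit over all 6 lines. Of 15227 genes, 0 were below it (0%) and 0 above it (0%) at a limma adjusted p below 0.05, and 839 had an unadjusted p below 0.05. With the pair labelled RDES shCtrl in its place, 0 genes were below and 0 above that pair's difference, and 255 had an unadjusted limma p below 0.05. The fit has 2 residual degrees of freedom and a single control pair, and PRC1 itself reached −3.36 with an adjusted p of 0.882, so no gene was called at this number of arrays. As a description, both shPRC1 differences were below both shCtrl differences for 115 of the 117 lower genes, beside 23.2% of all genes. Because these genes were called by their low shPRC1 differences, the count describes the list and tests nothing. Both shCtrl pairs stayed within 0.5 log2 for 84 of the 117 (71.8%, beside 80.5% of all genes), and 25 were above 0.5 in the shCtrl pair of SK-N-MC, ALDOC (1.17) and HLA-C (0.94) included.

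Against RDES shPRC1, 2 genes were lower in SK-N-MC shPRC1 (0.0131%) and 0 were higher (0%; 705 had an unadjusted p below 0.05). These were ALDOC and STC1, and after centring each array on its median neither passed (−3.25 and −3.17, limma adjusted p = 0.938 and 0.921). The ALDOC differences were −3.48 and −2.56 in the SK-N-MC lines, against 1.07 and −0.24 in the RDES lines, and those of STC1 −2.99 and −2.43, against 1.06 and 0.24. HLA-C (0.24 and 0.62 in RDES) and CD9 (−0.08 and 0.56) did not pass this test, with adjusted p of 0.253 each by limma. Of the 117 genes lower in SK-N-MC, 28 were below 0 in both RDES lines (23.9%, beside 14.1% of all genes), and PRC1 was the only one at or below −1 in both.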

How the data were processed

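RNA was measured on 12 Affymetrix Clariom D arrays, 1 per condition. The deposited tables hold a log2 signal for each probe set, made by the authors with SST-RMA with quantile normalization in Transcriptome Analysis Console (the submitters' processing notes name RMA and hg38). Quantile normalization forces equal distributions on all arrays, so a shift shared by most genes would be lost. Of 135750 probe sets 36176 had a single gene symbol, 595 symbols were updated through RefSeq, and the brightest probe set over the 12 arrays stood for each of 33481 genes. Genes with a mean of at least 6.5 over the 2 Dox (−) SK-N-MC shPRC1 arrays were tested (15227).

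The Dox (+) minus Dox (−) difference was taken within each derivative line, which pairs arrays of the same cells, and its mean over both lines was tested with limma 3.58.1 in R 4.3.3 (lmFit, eBayes without trend, two-sided, Benjamini-Hochberg, 0.05). Contrasts with shCtrl and RDES used all 6 lines. The fit was tested on simulated data, where the false share among calls exceeded the nominal level and changes of 1 log2 were recovered only in part. Those data had independent genes and no shift between arrays. The 26 gene lists, the members and the tests were chosen with earlier results of these data known. Named genes are PRC1, the 12 falls and 12 rises with the largest smaller-in-size difference of both lines, ALDOC, STC1, HLA-C and CD9, up to 4 members per list with the largest mean difference and the midzone list; others are said to have been chosen after their values were seen. Alternatives changed the filter, probe set, centring, eBayes options, pairing, spread and control, and left out each line. The number of arrays limits the precision.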

Additional observations from a re-analysis of the deposited data

Results flagged for a closer look

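The Dox effect differed between the SK-N-MC and RDES shPRC1 lines for 2 named genes by a test of the difference itself. For ALDOC the difference between cell lines was −3.44 log2 (limma adjusted p = 0.0449), with both SK-N-MC lines below both RDES lines, and for STC1 it was −3.36 (limma adjusted p = 0.0222), also with both below both. After centring each array on its median both calls were lost, with −3.25 (limma adjusted p = 0.938) for ALDOC and −3.17 (limma adjusted p = 0.921) for STC1. The 2 RDES lines have levels of ALDOC (8.03 and 8.22) and STC1 (9.21 and 9.76) without Dox that are below those of the SK-N-MC shPRC1 lines (11.42 and 11.37, 11.61 and 11.56).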

How the results depend on the processing

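With 1 residual degree of freedom the counts of calls moved with the estimate of the spread more than with the filter. Centring each array on its median left 3 lower and 0 higher genes, and 21 and 9 with at least 1 log2 in both lines. Without the replicate block, so with the pairing by derivative line dropped, 0 genes were lower and 0 higher, and PRC1 kept its difference of −3.47 but missed the threshold (limma adjusted p = 0.0709). The spread of all 6 lines gave 6 and 0. A trended prior gave 166 lower and 43 higher genes, against 117 and 19 in the main fit. It also gave 1 and 3 genes that differed from SK-N-MC shCtrl and RDES shPRC1, against 0 with RDES after centring. No filter on low values gave 11 genes higher by 1 log2 in both lines and 1 that differed from SK-N-MC shCtrl. With the SK-N-MC shCtrl difference subtracted there were 374 genes lower by at least 1 log2 in both hairpin lines and 94 genes higher by at least 1 log2 in both hairpin lines, and with that of the pair labelled RDES shCtrl 120 and 27. SLC7A5 had −0.28 with the first subtracted, against 1.04 without. Leaving out 1 line (with the spread of the other lines assumed) gave 7 to 12 lower and 1 higher gene, 237 to 484 and 83 to 128 past 1 log2, 5 to 7 that differed from SK-N-MC shCtrl and 5 to 6 from RDES shPRC1. PRC1 was then −4.02 to −2.93. Of 33 called named genes other than PRC1, 31 missed the threshold after centring, 33 without the block and 28 with the spread of all 6 lines. Comparison with 1 shCtrl pair alone was added after seeing the data. The cause was not tested for any of these.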

Other observations

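3 genes that neighbour each other on chromosome 10, STAMBPL1, ACTA2 and FAS, were higher with Dox in the SK-N-MC shCDS line and not in the shUTR line. STAMBPL1, which encodes a deubiquitinase, was at 9.84 in the Dox (+) shCDS array, against 7.79 in the Dox (−) array (2.05; −0.10 with shUTR). ACTA2, smooth muscle actin, differed by 1.87 with shCDS and −0.29 with shUTR, and FAS, a death receptor, by 1.66 and 0.28. In RDES the shCDS line gave 0.26, 0.07 and 1.05 for these genes. LIPA, the next tested gene beyond FAS in RefSeq order, had −0.19 with shCDS. TNC, a matrix glycoprotein, also differed between the lines, with 1.79 and −0.21. These genes were picked after their values were seen and no test was made. Ribosome biogenesis genes had 20 of 40 members above 0 in both lines, beside 22.0% of all genes, with medians of 0.28 and 0.02 in the shPRC1 lines and no called member.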
